A study of Mus musculus with 13 samples.

Results

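The nuclear end of the Hippo pathway was followed through 10 genes, chosen by name: the TEAD genes Tead1, Tead2, Tead3 and Tead4, the coactivator genes Yap1 and Wwtr1, and 4 targets that are widely used as readouts of their activity, Ctgf, Cyr61, Ankrd1 and Amotl2. All 10 were found among the 45250 genes of the expression table, and all 10 were among the 13802 genes that passed the filter on low values and were tested. RNA came from mouse embryonic stem (ES) cells that had been differentiated in culture towards blood. Flk-1+ cells, a mesodermal population enriched for haemangioblasts and isolated by the receptor that Kdr encodes, gave 3 libraries each of WT, Lmo2-/- and Tal1-/- cells. HE1, haemogenic endothelium sorted as Tie2+ Kit+ CD41- after further culture, gave 2 libraries each of WT and Lmo2-/- cells. Flk-1+ cells were isolated with magnetic beads straight from embryoid bodies. HE1 came from Flk-1+ cells grown on gelatin in another medium with added VEGF, and was sorted by flow cytometry. Stage therefore cannot be told apart from attachment, medium and way of isolation. Tal1-/- HE1 was not analysed here. Each genotype was a single ES cell line, so genotype and line cannot be told apart. The lines were kept on fibroblast feeders and were passaged on gelatin without feeders before differentiation. Each group was registered as 1 sample whose libraries are told apart by column names alone. The study describes them as biological replicates with independently prepared libraries, and the p-values measure the spread between them.

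TEAD proteins bind DNA but activate transcription poorly on their own, and they recruit YAP (from Yap1) or TAZ (from Wwtr1) to do so. The Hippo kinases phosphorylate YAP and TAZ and keep them out of the nucleus, whereas cell spreading, matrix stiffness and blood flow release them. The pathway is therefore controlled largely at the protein level, which RNA does not measure. In blood vessels YAP and TAZ are known for their part in sprouting and in the response of endothelium to flow.

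Values are FPKM, fragments scaled by transcript length and by the size of the library, as the authors made them for each library. Differences are log2 fold changes of FPKM + 1, with the standard error (SE), from a limma fit to all 13 libraries, and they understate the change of low genes. A gene was called when its Benjamini-Hochberg adjusted p over all tested genes was below 0.05 and at least 1 group of the comparison had a mean FPKM above 10. The files give no fragment counts, so the depth is unknown and no counting interval can be given. Replicates carry the numbers 0, 1 and 2 of the deposited columns, and library values are given in that order.

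Replicate 1 of the libraries labelled Lmo2-/- HE1 stood apart. It had 9694 genes above 0 against 11861 to 15641 in the others, and of the 4079 genes whose median FPKM exceeds 10 it listed 191 at 0, against at most 59 elsewhere. Its smallest FPKM steps put the worth of 1 fragment at 3.78 times the median of the other libraries, and such steps grow as fewer fragments are sequenced. Many results that rest on it are therefore given without it too, but not all, and those of the cell type markers are not. The targeted genes separated the Flk-1+ groups. Lmo2 was at 2.17 to 6.48 FPKM in Lmo2-/- and at 21.6 to 30.8 in WT Flk-1+ cells, and Tal1 at 2.74 to 3.41 in Tal1-/- and at 22.0 to 37.4 in WT. In HE1 the level of Lmo2 did not separate the genotypes, with 4.30 and 20.65 FPKM in WT and 6.42 and 0 in the libraries labelled Lmo2-/-, and its row also covers the neighbouring gene Fbxo3 on the same strand. The endothelial genes Cdh5 (281 to 452 FPKM) and Tek, which encodes Tie2 (121 to 176), marked all 4 HE1 libraries, and Kdr was at 68.7 to 252 in all 9 Flk-1+ libraries. Itga2b, which encodes the CD41 that the HE1 sort selects against, was at 15.4 and 10.4 FPKM in WT HE1 and at 19.8 and 0 in the libraries labelled Lmo2-/-.

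TEAD proteins recognise the sequence known as the M-CAT motif, with the core CATTCC, which reads GGAATG on the opposite strand. Of the 10 genes, 7 had a promoter window of 250 bases before to 50 after a start site in RefSeq (build GRCm38.p6), where Cyr61 is named Ccn1. The core was found anywhere in such a window, on either strand, in 6 of these 7 genes (85.7%), as against 16.6% of the 27025 genes with windows, and a gene can have more than 1 window. Tead2 was the one without it. The stretches of 40 bases that follow show the core, in capitals, in the promoters of 3 targets and of both coactivator genes, all read along the gene's strand. They are shown because these genes are described together and the core is what links the targets to TEAD binding. A match of letters is a description and not a binding site.
Cyr61: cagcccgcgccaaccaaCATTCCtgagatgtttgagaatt
Ankrd1, farther: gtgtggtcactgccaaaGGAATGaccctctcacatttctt
Ankrd1, nearer: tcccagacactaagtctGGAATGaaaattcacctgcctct
Amotl2: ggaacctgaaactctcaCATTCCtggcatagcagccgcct
Wwtr1: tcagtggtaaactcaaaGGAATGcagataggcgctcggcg
Yap1: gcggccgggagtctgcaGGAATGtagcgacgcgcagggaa

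The Cyr61 stretch lies at chr3:145650066-145650105 on the minus strand, with the core starting 103 bases before the start site. The Ankrd1 stretches lie at chr19:36120032-36120071 and chr19:36119945-36119984 on the minus strand, with the cores 210 and 123 bases before the start. Both lie inside the gene as GENCODE annotates it, which begins farther upstream, at 36120099. The Amotl2 stretch lies at chr9:102717722-102717761 on the plus strand, 65 bases before a start site inside the gene. The Wwtr1 stretch is at chr3:57576024-57576063 and the Yap1 stretch at chr9:8004715-8004754, both on the minus strand, with cores 136 and 141 bases before the start.

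Between the 2 stages, the gene for TAZ and the targets Ctgf and Ankrd1 were higher in HE1 than in Flk-1+ cells in both genotypes, and Tead1 was the only TEAD gene called, in Lmo2-/-. In WT, 3 of the 10 genes were called, all higher in HE1 (Wwtr1, Ctgf and Ankrd1), against a background of 6.04% of all tested genes called higher. In Lmo2-/- cells, 6 were called, all higher in HE1 (Tead1, Yap1, Wwtr1, Ctgf, Ankrd1 and Amotl2), against 17.2% of all genes. The median log2 fold change of the 10 genes was 1.07 in WT and 1.60 in Lmo2-/-, beside 0.11 and 0.30 over all tested genes. The WT count rested on few libraries. It was 1 (Ankrd1) without either WT HE1 library, 5 without Lmo2-/- HE1 replicate 0 and 6 without replicate 1. The general shift towards HE1 depended on the scaling of the libraries, since rescaling to a common median moved the median of all genes from 0.11 to -0.11 in WT and from 0.30 to -0.03 in Lmo2-/-. In WT 834 genes were called higher and 130 lower as deposited, but 464 and 260 after quantile normalisation. In Lmo2-/- these counts were 2379 and 328 as deposited, and 685 and 563 after quantile normalisation. Between genotypes none of the 10 genes was called in Flk-1+ cells or in HE1. In bulk RNA, fewer cells of a type and less RNA per cell cannot be told apart.

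**Figure D1:**
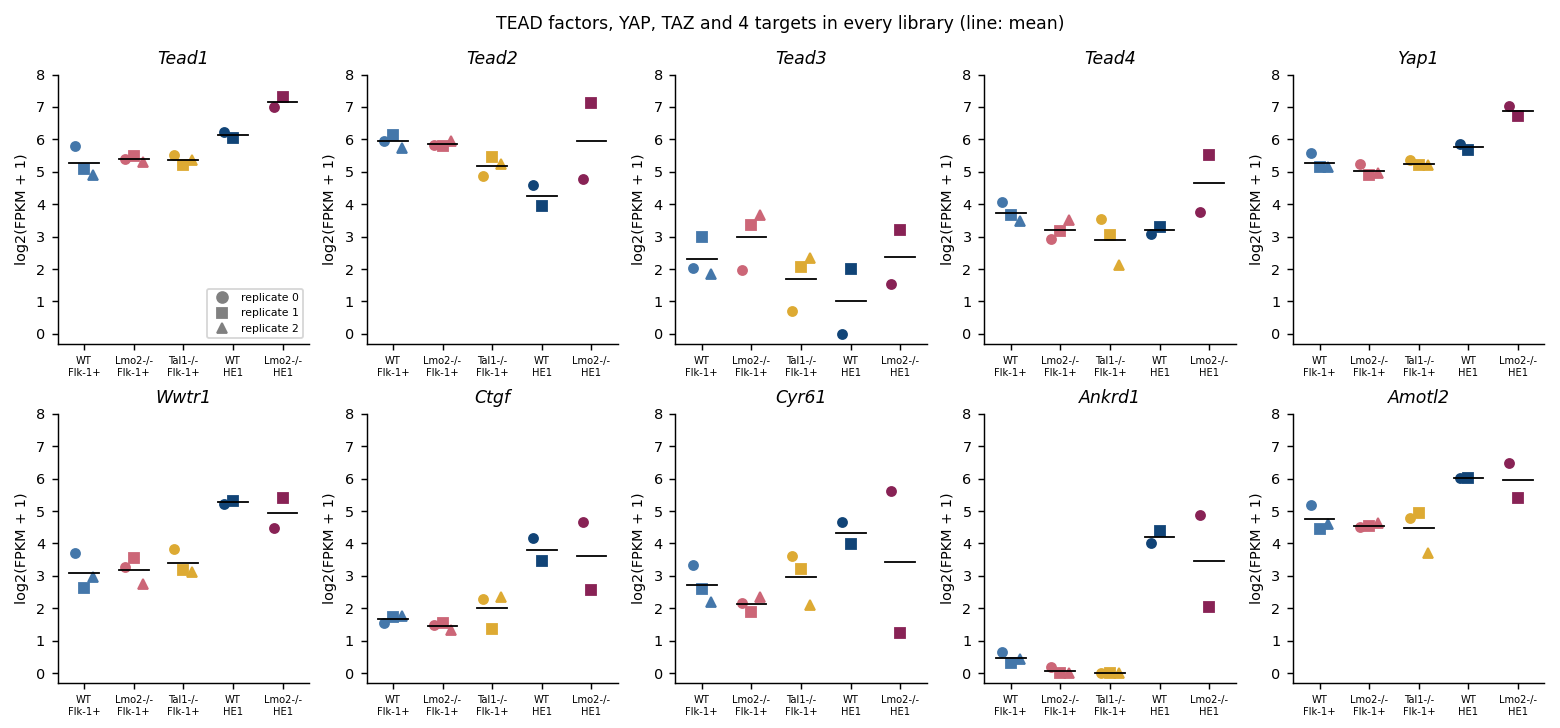
Level of each of the 10 genes as log2(FPKM + 1) in every library, with 1 panel per gene, the 5 groups along the x axis, marker shapes for the replicates and a line at the group mean. Wwtr1, Ctgf, Ankrd1 and Amotl2 sit higher in all 4 HE1 libraries than in every Flk-1+ library, and the 2 libraries labelled Lmo2-/- HE1 lie far apart for Tead2, Tead4, Ctgf, Cyr61 and Ankrd1.

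Tead1 encodes the TEAD factor that predominates in heart and many other tissues, and its row lies on chromosome 7 (112613468 to 112906807, plus strand), reaching 65850 bases upstream of the annotated gene. Its level was 54.4, 32.7 and 28.9 FPKM in WT, 41.5, 44.1 and 38.6 in Lmo2-/- and 45.2, 36.1 and 40.3 in Tal1-/- Flk-1+ cells, so these groups overlapped. HE1 had 73.4 and 64.5 FPKM in WT and 126 and 158 in the libraries labelled Lmo2-/-, and every HE1 library was above every Flk-1+ library. The rise from Flk-1+ cells to HE1 was called in Lmo2-/- (log2 fold change 1.75, SE 0.32, adjusted p = 0.00213) and was not called in WT (0.87, SE 0.32, adjusted p = 0.114). After quantile normalisation the rise of Tead1 in Lmo2-/- was 0.69 (adjusted p = 0.149), and with the libraries rescaled to a common median 1.23 (adjusted p = 0.0131). The difference between genotypes in HE1 was 1.03 (SE 0.35, adjusted p = 0.118), and 0.87 (adjusted p = 0.391) without Lmo2-/- HE1 replicate 1.

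Tead2 encodes the TEAD factor of the early embryo, neural precursors and mesoderm. Its row on chromosome 7 (45215753 to 45239115, plus strand) reaches 5471 bases past the annotated gene, over Cd37 on the opposite strand. In Flk-1+ cells Tead2 was at 60.5, 69.1 and 52.1 FPKM in WT, 55.7, 54.6 and 61.1 in Lmo2-/- and 28.3, 42.5 and 36.7 in Tal1-/-. The Tal1-/- libraries were below all other Flk-1+ libraries. The difference from WT was nevertheless not called, at -0.75 (SE 0.47, adjusted p = 0.914), and the exact permutation p was 0.1, which is the lowest possible for 3 against 3. In HE1, Tead2 was at 22.9 and 14.4 FPKM in WT, below every Flk-1+ library, and at 26.6 and 139 in the libraries labelled Lmo2-/-, which lay on either side of the Flk-1+ range. The difference in WT was -1.67 on the log2 scale, missing the threshold as fitted (SE 0.52, adjusted p = 0.0606) and passing it in 6 of 22 alternatives. Of these, quantile normalisation gave -2.13 (adjusted p = 0.00423) and the fit without Lmo2-/- HE1 replicate 1 gave the same -1.67 with an adjusted p of 0.00344. In Lmo2-/- the difference between the stages was 0.10 (SE 0.52, adjusted p = 0.906). Its direction turned with the scaling, to -0.95 after quantile normalisation and -0.41 at a common median, and it was -1.07 (adjusted p = 0.0816) without replicate 1 and 1.27 (adjusted p = 0.0220) without replicate 0 of Lmo2-/- HE1.

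Tead3 encodes a TEAD factor best known from placenta and skin, and it was the lowest of the family in 10 of the 13 libraries, with Tead4 lower in the other 3. It ranged from 2.63 to 6.92 FPKM in WT, from 2.90 to 11.6 in Lmo2-/- and from 0.616 to 4.03 in Tal1-/- Flk-1+ cells. WT HE1 had it listed at 0 and at 2.99 FPKM, and it stood at 1.92 and 8.30 in the libraries labelled Lmo2-/-. All 6 pairwise comparisons overlapped, and none was called.

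Tead4 encodes the factor that specifies the trophectoderm of the blastocyst. It was at 15.6, 11.7 and 10.1 FPKM in WT, 6.65, 8.02 and 10.3 in Lmo2-/- and 10.7, 7.27 and 3.31 in Tal1-/- Flk-1+ cells, with overlap between all 3 groups. WT HE1 had 7.48 and 8.92 FPKM, below the WT Flk-1+ libraries, and those labelled Lmo2-/- HE1 had 12.6 and 44.9, above the Lmo2-/- Flk-1+ libraries. Neither difference was called. The log2 fold change of Tead4 from Flk-1+ cells to HE1 was -0.53 in WT (SE 0.54, adjusted p = 0.596) and 1.44 in Lmo2-/- (SE 0.54, adjusted p = 0.0651). The latter was 0.57 (adjusted p = 0.520) without Lmo2-/- HE1 replicate 1 and 2.32 (adjusted p = 0.00650, called) without replicate 0.

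Because FPKM is per length, the levels of the 4 TEAD genes can be set side by side in a library. In the 9 Flk-1+ libraries Tead2 made up 33.3% to 57.4% of their summed FPKM and Tead1 27.2% to 53.3%, and the ratio of Tead1 to Tead2 was 0.474 to 1.60. In WT HE1, Tead1 made up 70.7% and 71.1% and Tead2 22.1% and 15.8%, with ratios of 3.20 and 4.49. Replicate 0 of Lmo2-/- HE1 had a like make-up (75.4% Tead1, 15.9% Tead2, ratio 4.74). Replicate 1, the library that stands apart, did not, with 45.2% Tead1, 39.7% Tead2 and a ratio of 1.14. Tead4 held 3.93% to 12.8% and Tead3 at most 9.56% of the sum in any library. The sum itself was 84.3 to 134 FPKM in Flk-1+ cells, 104 and 90.8 in WT HE1, and 167.5 and 351 in the libraries labelled Lmo2-/- HE1. Within these sums, 3 of the 4 HE1 libraries had Tead1 ahead of Tead2 by more than any Flk-1+ library.

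**Figure D2:**
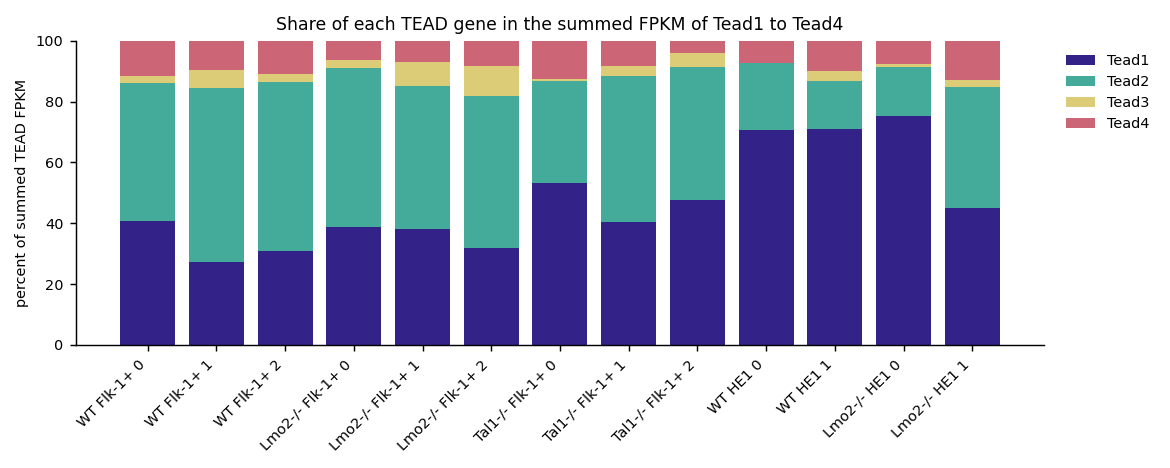
Share of each TEAD gene (percent of the summed FPKM of Tead1 to Tead4, y axis) in each of the 13 libraries (x axis, with the replicate number). Tead1 holds 70.7% to 75.4% in 3 of the 4 HE1 libraries and at most 53.3% in the Flk-1+ libraries, and Lmo2-/- HE1 replicate 1 stays at 45.2%.

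Yap1 encodes YAP, the coactivator that the Hippo kinases inhibit, and its row matches the gene on chromosome 9 (7931999 to 8004596, minus strand). It was at 46.4, 34.1 and 34.4 FPKM in WT, 36.8, 28.6 and 29.9 in Lmo2-/- and 39.9, 35.7 and 35.6 in Tal1-/- Flk-1+ cells. HE1 had 56.5 and 50.1 FPKM in WT and 129 and 104 in the libraries labelled Lmo2-/-, so that both Lmo2-/- libraries were above both WT ones and all 4 were above every Flk-1+ library. From Flk-1+ cells to HE1, Yap1 rose in Lmo2-/- by 1.85 (SE 0.29, adjusted p = 0.000902). After quantile normalisation this rise was 0.76 (adjusted p = 0.169), and at a common median 1.33 (adjusted p = 0.00974). In WT the difference was 0.48 (SE 0.29, adjusted p = 0.348), and it was -0.03 after quantile normalisation. The genotypes differed in HE1 by 1.11 (SE 0.32), which missed the threshold (adjusted p = 0.0682). It was 1.27 (adjusted p = 0.128) without Lmo2-/- HE1 replicate 1. The test of whether the stage change of Yap1 differed between WT and Lmo2-/- gave 1.37 (SE 0.41, adjusted p = 0.190).

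Wwtr1 encodes TAZ, the paralogue of YAP, with a row on chromosome 3 (57455649 to 57575910, minus strand). In Flk-1+ cells it was at 12.1, 5.21 and 6.84 FPKM in WT, 8.66, 10.6 and 5.68 in Lmo2-/- and 13.3, 8.14 and 7.79 in Tal1-/-. In HE1 it reached 36.4 and 38.7 FPKM in WT and 21.5 and 41.0 in the libraries labelled Lmo2-/-, all above the Flk-1+ range. Wwtr1 was higher in HE1 by 2.16 in WT (SE 0.44, adjusted p = 0.00781), past the threshold in 20 of 22 alternatives, the exceptions being the fits without either WT HE1 library. In Lmo2-/- it was higher by 1.76 (SE 0.44, adjusted p = 0.0118), past the threshold in 18 of 22 alternatives. At a common median it was higher by 1.26 (adjusted p = 0.0482). The threshold was missed after quantile normalisation (0.85, adjusted p = 0.201) and without Lmo2-/- HE1 replicate 1 (1.31). It was also missed with array weights (adjusted p = 0.075) and in a fit of only the groups compared (adjusted p = 0.072).

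The balance of the coactivators can be read in the same way. YAP transcripts made up 72.9% to 86.8% of the summed FPKM of Yap1 and Wwtr1 in the 9 Flk-1+ libraries. In WT HE1 they made up 60.8% and 56.5%, below all Flk-1+ libraries. In the libraries labelled Lmo2-/- HE1 they made up 85.8% and 71.7%, of which the first lies within the Flk-1+ range and the second just under it. The summed FPKM of Yap1 and Wwtr1 was 35.55 to 58.5 in Flk-1+ cells, 92.9 and 88.8 in WT HE1 and 151 and 145 in Lmo2-/- HE1.

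Ctgf encodes a secreted matricellular protein and is among the most used readouts of YAP and TEAD. Its row on chromosome 10 (24549441 to 24598683, plus strand) reaches 46001 bases upstream of the annotated gene, which itself spans 3242 bases, so its FPKM may hold reads from outside the gene. Ctgf was at 1.91, 2.30 and 2.39 FPKM in WT, 1.82, 1.90 and 1.49 in Lmo2-/- and 3.89, 1.58 and 4.13 in Tal1-/- Flk-1+ cells. HE1 had 16.9 and 10.04 FPKM in WT and 24.3 and 4.92 in the libraries labelled Lmo2-/-, all above every Flk-1+ library. The rise in WT was 2.14 (SE 0.58, adjusted p = 0.0352) and passed the threshold in 12 of 22 alternatives, among them neither quantile normalisation (1.97, adjusted p = 0.0548) nor a common median (1.88, adjusted p = 0.0844), and it was lost without any 1 of the WT libraries or without Lmo2-/- Flk-1+ replicate 0 or 2. In Lmo2-/- Ctgf rose by 2.16 (SE 0.58, adjusted p = 0.0166), by 3.21 (adjusted p = 0.00332) without Lmo2-/- HE1 replicate 1 and by 1.12 (adjusted p = 0.117) without replicate 0. It passed the threshold in 17 of 22 alternatives, being lost also without Lmo2-/- Flk-1+ replicate 2, at a common median (1.75, adjusted p = 0.0675), with array weights (adjusted p = 0.0694) and in a fit of only the groups compared (adjusted p = 0.120).

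Cyr61 encodes the related matricellular protein of the same family, on chromosome 3 (145646976 to 145649981, minus strand). In Flk-1+ cells it was at 9.17, 5.004 and 3.54 FPKM in WT, 3.44, 2.70 and 4.11 in Lmo2-/- and 11.2, 8.33 and 3.27 in Tal1-/-. WT HE1 had 24.4 and 14.9 FPKM, above every Flk-1+ library. In the libraries labelled Lmo2-/- HE1 it was at 48.5 and 1.36, the highest and the lowest of all 13 libraries. Neither stage difference was called, at 1.63 in WT (SE 0.93, adjusted p = 0.315) and 1.30 in Lmo2-/- (SE 0.93, adjusted p = 0.319). The latter was 3.50 (adjusted p = 0.00452) without replicate 1 and -0.89 (adjusted p = 0.281) without replicate 0 of Lmo2-/- HE1.

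Ankrd1 encodes a stress-induced ankyrin repeat protein of muscle and endothelium that binds titin and acts in the nucleus, on chromosome 19 (36111965 to 36119844, minus strand). It was at 0.558, 0.255 and 0.361 FPKM in WT Flk-1+ cells, at 0.133 in 1 and listed at 0 in 2 libraries of Lmo2-/-, and listed at 0 in all 3 libraries of Tal1-/-. In HE1 it was at 15.1 and 20.1 FPKM in WT and at 28.15 and 3.14 in the libraries labelled Lmo2-/-. This was the largest stage difference of the 10 genes. It was 3.73 in WT (SE 0.63, adjusted p = 0.00227), past the threshold in all 22 alternatives. In Lmo2-/- it was 3.40 (SE 0.63, adjusted p = 0.00229), past the threshold in 21 of 22 alternatives, and 4.81 (adjusted p = 0.000132) without Lmo2-/- HE1 replicate 1. Without replicate 0 it was 1.99 (adjusted p = 0.00481), and the remaining level of 3.14 FPKM was too low for a call.

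Amotl2 encodes angiomotin-like 2, a junctional protein that binds and restrains YAP and is itself a YAP target, on chromosome 9 (102716672 to 102733418, plus strand). Its level was 35.7, 20.8 and 23.2 FPKM in WT, 21.6, 22.2 and 23.7 in Lmo2-/- and 26.8, 30.0 and 11.9 in Tal1-/- Flk-1+ cells. In HE1 it was at 64.1 and 63.5 FPKM in WT and at 88.4 and 41.8 in the libraries labelled Lmo2-/-, all above the Flk-1+ range. The rise was called in Lmo2-/- (1.40, SE 0.43, adjusted p = 0.0314) but not in WT (1.27, SE 0.43, adjusted p = 0.0872). The Lmo2-/- rise was 0.36 (adjusted p = 0.681) after quantile normalisation and 0.89 (adjusted p = 0.186) at a common median. It passed the threshold in 13 of 22 alternatives. It was also not called without any 1 of the Lmo2-/- Flk-1+ libraries or without Lmo2-/- HE1 replicate 0 (0.86). Nor was it called with array weights, with a replicate block or in a fit of only the groups compared.

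**Figure D3:**
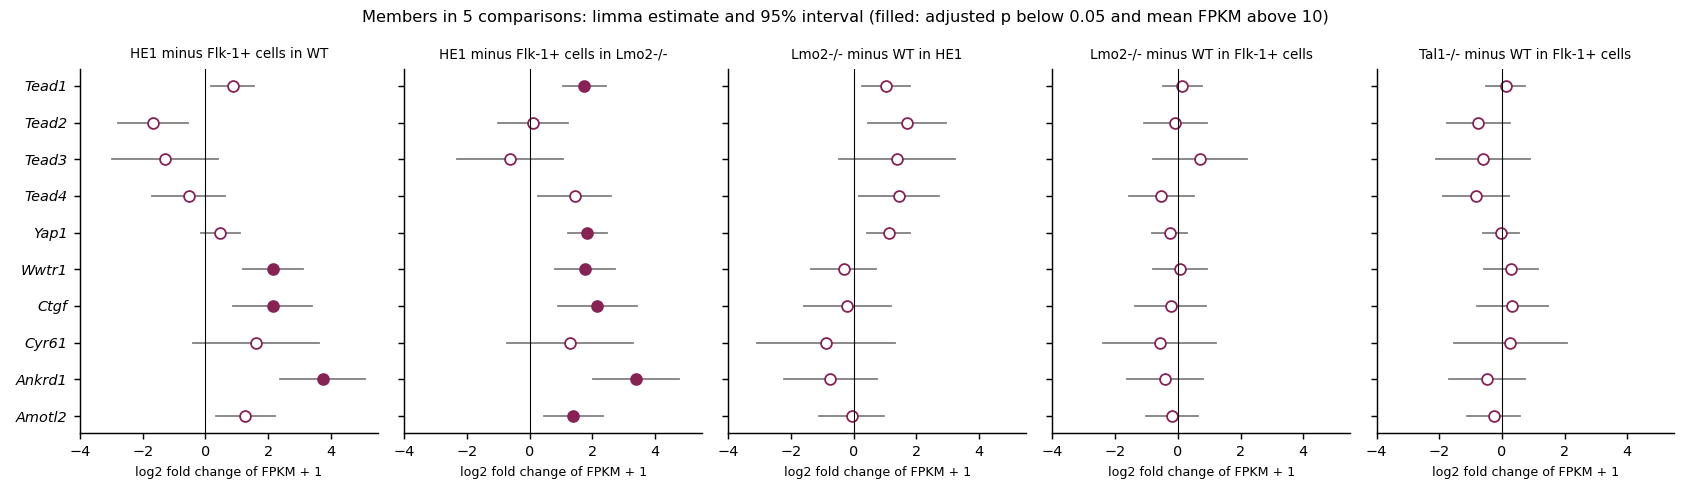
Log2 fold change of FPKM + 1 (x axis) of the 10 genes with its 95% interval from limma in 5 comparisons, 1 per panel; filled points were called. Filled points appear in the stage comparisons alone, 3 in WT and 6 in Lmo2-/-, with Ankrd1 at 3.73 and 3.40.

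Of the 10 genes, 9 had WT HE1 libraries outside the range of WT Flk-1+ cells, 7 higher and 2 lower, against 27.6% and 17.2% of all tested genes. In Lmo2-/-, 7 were higher without overlap, against 31.9%, and none was lower, against 15.1%. The 2 stage comparisons share no library, but 1 fit to all 13 libraries gave both the same estimate of the spread. Their calls are therefore not independent. The test of whether the stage change differed between the genotypes called none of the 10 genes, against 0.348% of all genes, and the smallest adjusted p was that of Yap1. Without Lmo2-/- HE1 replicate 0, when replicate 1 alone stands for its group, the difference was 2.95 for Tead2 and 2.85 for Tead4. Without replicate 1 it was 0.60 for Tead2 and 1.1 for Tead4. In both fits the lone library is assumed to vary like the other groups. With 3 against 2 libraries the exact permutation p for a single gene cannot go below 0.2.

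In HE1, none of the 10 genes was called between the genotypes, against 3.01% of all tested genes, and 4 had an unadjusted p below 0.05, beside 20.7% of all. These 4 (Tead1, Tead2, Tead4 and Yap1) were higher in both libraries labelled Lmo2-/- than in either WT library, against 25.9% of all genes. For the other genes the genotypes overlapped, and for Ctgf, Cyr61, Ankrd1 and Amotl2 one Lmo2-/- library lay above both WT libraries and the other below. Thus the summed FPKM of the 4 targets was 120 and 109 in WT HE1 and 189 and 51.2 in Lmo2-/- HE1. The result hung on which Lmo2-/- library was kept. Without replicate 0, the log2 fold change was 2.87 for Tead2, 2.32 for Tead4, -3.09 for Cyr61 and -2.15 for Ankrd1. Without replicate 1, it was 0.53 for Tead2 and 0.57 for Tead4, and Cyr61 and Ankrd1 pointed the other way (1.30 and 0.66). In both of these fits the lone library is assumed to vary like the other groups, and 2 against 2 libraries cannot give an exact permutation p below 0.3333.

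In Flk-1+ cells, none of the 10 genes was called between Lmo2-/- and WT, where limma called none of the 13802 tested genes (0%) and 307 (2.22%) had an unadjusted p below 0.05, none of them among the 10. The targeted gene Lmo2 was thus not called either, at 22.85, 30.8 and 21.61 FPKM in WT and 2.63, 6.48 and 2.17 in Lmo2-/-. A lack of calls here therefore does not show a lack of change. The study, with Cuffdiff, did report genes that differed in this comparison. The median log2 fold change of the 10 genes was -0.21, beside -0.01 over all genes. Ctgf and Ankrd1 were lower in all 3 Lmo2-/- libraries than in all WT ones, against 4.22% of all genes. For Ctgf the gap was between 1.90 and 1.91 FPKM (log2 fold change -0.23, SE 0.52, exact permutation p = 0.1), and Ankrd1 lay under 1 FPKM throughout. The interval of the difference was narrow for Yap1 (-0.82 to 0.30) and Tead1 (-0.47 to 0.77) and wide for Cyr61 (-2.37 to 1.22).

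Between Tal1-/- and WT Flk-1+ cells, none of the 10 genes was called, and limma again called none of all genes (0%), with 843 (6.11%) at an unadjusted p below 0.05, again none among the 10. The targeted gene Tal1 was thus not called either, so here too a lack of calls does not show a lack of change. Tead2 and Ankrd1 were lower without overlap, against 7.4% of all genes. This comparison uses the same WT libraries as that of Lmo2-/-, so the same WT values enter both. Set directly against Lmo2-/-, Tal1-/- cells had Tead2 lower in all 3 libraries (-0.68, SE 0.47, adjusted p = 0.917), against 6.66% of all genes lower without overlap, and again no member was called (0.0145% of all genes).

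The rest of the pathway was read from a list of 27 genes for the Hippo kinases, their upstream regulators and the cofactors of TEAD, of which 25 were tested. In WT, 5 were called higher in HE1 and 1 lower, against 6.04% and 0.942% of all tested genes. In Lmo2-/- 17 were called higher and none lower, against 17.2% and 2.38%. The median log2 fold changes were 1.00 in WT and 1.55 in Lmo2-/-, beside 0.11 and 0.30 over all tested genes. The WT calls in both directions together ran from 1 to 10 with each library left out. They were 10 without either Lmo2-/- HE1 library, 8 without WT Flk-1+ replicate 0, at most 3 without any other Flk-1+ library and 1 without either WT HE1 library. The Lmo2-/- count was 11 without Lmo2-/- HE1 replicate 1. Fat4, the giant protocadherin at the top of the pathway, was at 2.76 to 12.1 FPKM in WT and 3.54 to 6.56 in Lmo2-/- Flk-1+ cells, and at 146 and 109 in WT and 198 and 218 in Lmo2-/- HE1. It rose by 4.43 in WT (SE 0.49, adjusted p = 0.000141) and by 5.19 in Lmo2-/- (SE 0.49, adjusted p = 3.69e-05). Amotl1, a junctional YAP-binding protein and paralogue of Amotl2, rose by 1.69 (adjusted p = 0.0274) in WT and by 2.66 (adjusted p = 0.00109) in Lmo2-/-. Ptpn14, a phosphatase that holds YAP in the cytoplasm, rose by 1.67 (adjusted p = 0.0478) and by 2.41 (adjusted p = 0.00376).

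Amot, the founder of the angiomotin family, parted the genotypes in HE1. It was at 137 to 298 FPKM in WT and 155 to 272 in Lmo2-/- Flk-1+ cells, at 77.3 and 75.2 in WT HE1 and at 239 and 230 in the libraries labelled Lmo2-/- HE1. WT HE1 was below every Flk-1+ library, and Lmo2-/- HE1 within their range. Amot fell by 1.29 in WT from Flk-1+ cells to HE1 (SE 0.37, adjusted p = 0.0430) and was higher by 1.61 in Lmo2-/- than in WT HE1 (SE 0.40, adjusted p = 0.0409). Frmd6, a FERM-domain activator of the Hippo kinases, was at 18.4 and 13.8 FPKM in WT HE1 and at 43.99 and 58.5 in Lmo2-/- HE1 (1.61, SE 0.41, adjusted p = 0.0429). These were the only genes of the list called between the genotypes in HE1. None was called after quantile normalisation or at a common median, nor without WT Flk-1+ replicate 2, Lmo2-/- Flk-1+ replicate 0 or 2, Tal1-/- Flk-1+ replicate 0 or 2, either WT HE1 library or Lmo2-/- HE1 replicate 1, and 4 were without Lmo2-/- HE1 replicate 0. There was 1 call without Lmo2-/- or Tal1-/- Flk-1+ replicate 1. The list's counts also moved with the scaling. After quantile normalisation 1 gene was called higher and 1 lower in WT, and 5 higher in Lmo2-/-. The counts over all tested genes at this scaling are given above, and the WT calls of the list lie near that share. Fitting only the groups compared left 1 call in WT and 9 in Lmo2-/-.

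A second list held 21 other targets of YAP, TAZ and TEAD, of which 20 were tested, and 3 of its genes (Ptpn14, Lats2 and Ajuba) are also in the first. In WT, 4 were called higher in HE1 and none lower, against 6.04% and 0.942% of all tested genes, and in Lmo2-/- 10 were called higher and 1 lower, against 17.2% and 2.38%. The medians were 1.08 and 1.59, beside 0.11 and 0.30 over all. The WT count was 2 without either WT HE1 library, and the Lmo2-/- count was 7 in all without Lmo2-/- Flk-1+ replicate 0. Thbs1, which encodes the matricellular thrombospondin 1, was at 0.137 to 0.596 FPKM in WT Flk-1+ cells and at 30.1 and 23.2 in WT HE1 (4.37, SE 0.52, adjusted p = 0.000238), and it rose by as much in Lmo2-/- (4.37, SE 0.52, adjusted p = 0.000163). Ccdc80, a matrix protein, rose by 3.15 (adjusted p = 0.0005) in WT and by 5.06 (adjusted p = 2.07e-05) in Lmo2-/-. Axl, a receptor tyrosine kinase, rose by 2.94 in Lmo2-/- (SE 0.58, adjusted p = 0.00316). Crim1, a transmembrane protein that binds growth factors, was at 1.07 to 1.24 FPKM in WT Flk-1+ cells and at 14.7 and 12.7 in WT HE1 (2.76, SE 0.60, adjusted p = 0.0109), and it rose by 2.85 in Lmo2-/- (SE 0.60, adjusted p = 0.00448). No gene of this list was called between the genotypes in HE1, while 3 were without Lmo2-/- HE1 replicate 0 and 1 without Tal1-/- Flk-1+ replicate 0 or 1. No gene of either list was called between genotypes in Flk-1+ cells.

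**Figure D4:**
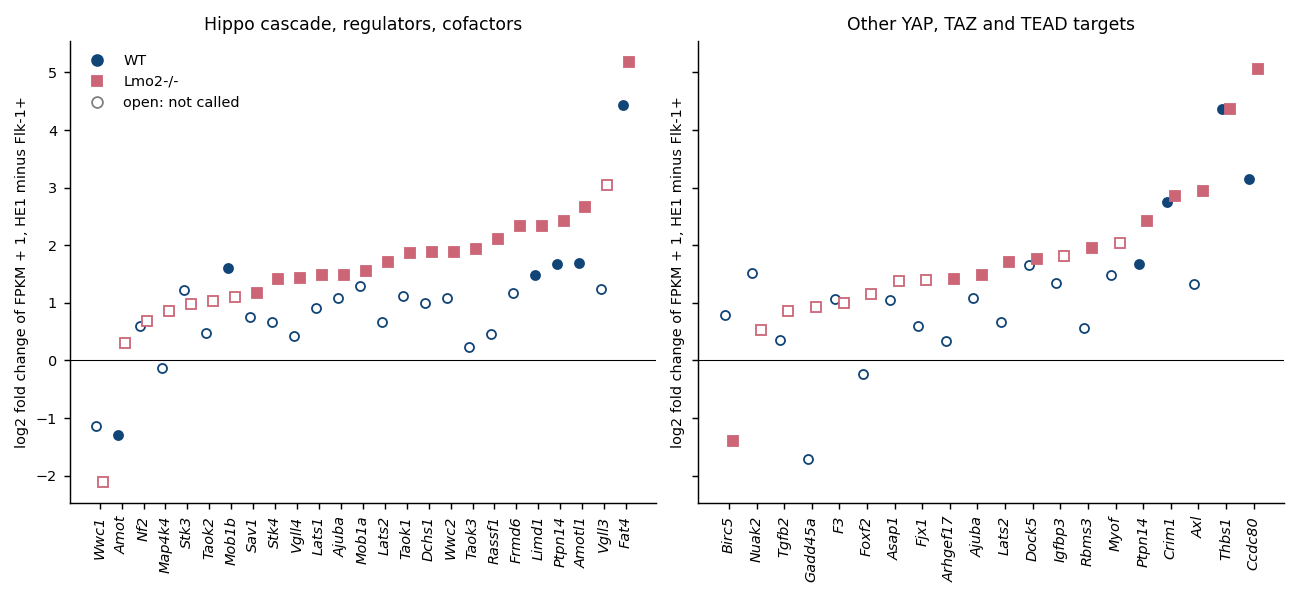
Log2 fold change of FPKM + 1 from Flk-1+ cells to HE1 (y axis) for the 25 tested genes of the Hippo list (left) and the 20 tested other targets (right), in WT (circles) and Lmo2-/- (squares), ordered by the Lmo2-/- value; filled points were called. Fat4, Thbs1 and Ccdc80 lie highest in both genotypes or near it, with Thbs1 at 4.37 in each.

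Markers of other cells were set beside these values. Of 10 tested genes on a list of 11 for fibroblasts and mesenchyme, 5 were called higher in Lmo2-/- than in WT HE1 and none lower, against 2.15% and 0.855% of all tested genes. The summed FPKM of this list was 1618 to 1764 in WT and 1896 to 5940 in Lmo2-/- HE1, beside 643.5 to 2924 in Flk-1+ cells. Fn1 supplied most of it in every library. Col1a1 was at 6.64 and 5.23 FPKM in WT HE1 and at 29.6 and 259 in Lmo2-/- HE1, and Postn at 19.97 and 12.4 and at 99.7 and 372. Dcn, a defining gene of mature fibroblasts, was listed at 0 in 3 of the 4 HE1 libraries. Tead2 and Tead4 were high in the same library, replicate 1, as Col1a1 and Postn. The 10 smooth muscle genes summed to 35.5 to 120 FPKM in Flk-1+ cells, 354 to 404 in WT HE1 and 572 to 1264 in Lmo2-/- HE1. Of these, Acta2 was at 165 and 114 FPKM in WT and at 263 and 816 in Lmo2-/- HE1, while Myh11, which defines mature smooth muscle, was at most 0.617 in any library. None of the 7 smooth muscle genes tested was called between the genotypes in HE1, and their median was 0.30 beside 0.15 over all genes. The 11 endothelial genes summed to 101.5 to 356.5 FPKM in Flk-1+ cells, 1415 to 1521 in WT HE1 and 1033 to 1164 in Lmo2-/- HE1, and none of the 10 tested was called between the genotypes in HE1. The 11 cardiac genes summed to 80.3 to 101 FPKM in WT HE1 and to 218 to 278 in Lmo2-/- HE1, where 1 of 10 tested was called higher. That gene, Hand1, which also marks early lateral mesoderm, was at 17.7 and 2.96 FPKM in WT and at 117 and 210.3 in Lmo2-/- HE1. Hand1 alone supplied most of the sum in both Lmo2-/- HE1 libraries. The median log2 fold change of the cardiac list between the genotypes in HE1 was 0, beside 0.15 over all genes. Of 8 early mesoderm genes, 6 were called lower at the HE1 stage in WT and 4 in Lmo2-/-. The shares of all tested genes called lower were 0.942% and 2.38%. The list's median log2 fold change between the stages was -4.64 in WT and -2.91 in Lmo2-/-. Only 1 of these 8 genes, Pdgfra, was called between the genotypes in HE1, higher in Lmo2-/-. Its row, shared with Mir7025, was at 2.98 and 1.009 FPKM in WT and at 37.3 and 94.5 in Lmo2-/- HE1. Of the blood progenitor and pluripotency genes, 0 of 6 and 0 of 5 tested were called between the genotypes in HE1. The part of these cells in the levels of the TEAD genes, Yap1, Wwtr1 and the targets was not tested.

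The genes most alike to Ctgf and to Tead2 were sought among 7575 tested genes with a mean FPKM of at least 5, by Pearson's r of log2(FPKM + 1) over the 13 libraries, which share their groups. For Ctgf these were Klf6 (r = 0.947), Crim1 (0.946), Crk (0.932), Slc30a1 (0.929) and Ankrd1 (0.929). Within the 9 Flk-1+ libraries their r was 0.645, 0.563, 0.543, 0.358 and -0.164, so the likeness of Ankrd1 rested on the HE1 libraries. For Tead2 these were Bmp4 (0.930), Taf6 (0.925), the joint row of Cnot3 and Mir3572 (0.909), Adat1 (0.905) and Cbln1 (0.904), with 0.851, 0.889, 0.648, 0.329 and 0.846 within the Flk-1+ libraries. Bmp4, a ligand that drives blood-forming mesoderm, was at 9.43 and 11.8 FPKM in WT HE1 and at 32.9 and 235 in Lmo2-/- HE1. Because Bmp4 was picked for its likeness to Tead2, its high level in the same library follows from that choice.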

How the data were processed

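FPKM of 13 RNAseq libraries of Flk-1+ cells and HE1 were used. The authors mapped the reads to GRCm38 with TopHat2 2.0.9, built transcripts with Cufflinks 2.0.0 and Cuffmerge, and deposited an FPKM value per gene and library from Cuffnorm. Cufflinks was run with quartile normalisation and a correction of effective length, and the scaling set in Cuffnorm is not given in the sources used here. Of their Cuffdiff 2.0.1 output, gene names and loci were used, and the FPKM per condition, fold changes, p-values and q-values were not. Tools and versions follow the submitters' processing notes and the study's methods.

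Genes were matched by symbol to rows of the table. The test took 13802 of 45250 genes, those whose locus exceeds 200 bp and whose FPKM reaches 1 in 2 or more libraries. limma 3.58.1 (R 4.3.3) was run with a pseudocount of 1, group as the factor and a trend of the variance with the mean. The fit was tested on simulated data. Single genes had a two-sided exact permutation test (scipy 1.17.1). Named were the 10 genes, up to 3 called genes with the largest change per pathway list and comparison, markers whose level moves with a result, and the 5 genes most alike to Ctgf and to Tead2. The 10 genes and the lists were chosen with earlier results of these data known. One gene of the list of other targets is not reported here and was left out of the list's counts. Alternatives were a pseudocount of 0.1, other filters, calls without the FPKM criterion, 2 scalings, fits of only the groups compared, a constant prior variance, array weights, a replicate block and the omission of each library. Gene positions are from GENCODE M21 (GRCm38) and the table, and promoters from RefSeq (GRCm38.p6).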

Additional observations from a re-analysis of the deposited data

Results flagged for a closer look

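Tead4 was singled out because it moved in opposite directions between the stages in the 2 genotypes, with every library of one group on one side. In WT both HE1 libraries (7.48 and 8.92 FPKM) were below the 3 Flk-1+ libraries (10.1 to 15.6), and in Lmo2-/- both HE1 libraries (12.6 and 44.9) were above them (6.65 to 10.3). The test of the difference between these changes gave 1.98 on the log2 scale (SE 0.76, unadjusted p = 0.0218), which did not pass adjustment over all tested genes (limma, adjusted p = 0.307). It was 1.1 (adjusted p = 0.656) without Lmo2-/- HE1 replicate 1, and 2.85 (adjusted p = 0.0235) without replicate 0, when replicate 1 alone stands for its group. Groups of 2 or 3 libraries are too small for a test of single outlying libraries.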

How the results depend on the processing

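Lmo2-/- HE1 replicate 1 has the fewest genes above 0, the depth of all libraries is unknown, and each HE1 group has 2 libraries, which limits every HE1 value. Of the 70 counts of called genes among the 10 under alternatives that keep all libraries, 65 stayed within 1.5 times the count as fitted. Most of these belong to comparisons with no call as fitted, where a count has little room to move, so this is a weak measure of stability. A count can also hold while its genes change. Between the stages in WT, quantile normalisation gave 3 calls, with Tead2 in place of Ctgf. Between the genotypes in HE1, no filter on low values gave 1 call (Yap1, adjusted p = 0.0488). From Flk-1+ cells to HE1, array weights, which give both Lmo2-/- HE1 libraries a weight of 0.321, gave 7 calls in WT and 3 in Lmo2-/-, and in Lmo2-/- quantile normalisation gave 2 and a fit of only the groups compared 2. With each library left out, the number of calls ran from 1 to 6 in WT and from 4 to 6 in Lmo2-/- between the stages, from 0 to 4 between the genotypes in HE1 and from 0 to 2 for the interaction. Among these fits, calls over all tested genes are given above for quantile normalisation alone. The other counts therefore describe the fits and are not read as results about the 10 genes. The cause of these changes was not tested.

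The replicate numbers did not pair the libraries: the correlations of same-numbered deviations ran from -0.18 to 0.17. A replicate block ended a single call among the 10 genes, that of Amotl2 between the stages in Lmo2-/- (1.25, adjusted p = 0.0614), and moved the Hippo list's calls to 1 in WT between the stages and 0 between the genotypes in HE1.

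Directions turned for changes that were not called. Array weights gave 0.026 for Tead2 between Lmo2-/- and WT, 0.040 for Yap1 between Tal1-/- and WT, and 0.0023 for Tead1 between Tal1-/- and Lmo2-/- Flk-1+ cells. Quantile normalisation gave 0.0057 for Ankrd1 between Tal1-/- and Lmo2-/- Flk-1+ cells, -0.025 for Yap1 between the stages in WT, -0.95 for Tead2 between the stages in Lmo2-/-, and 0.031 for Cyr61 and -0.42 for Amotl2 in the interaction. A common median gave -0.41 for Tead2 between the stages in Lmo2-/-, and -0.13 for Ctgf and -0.075 for Amotl2 in the interaction. A pseudocount of 0.1 gave 0.97 for Ankrd1 in the interaction.

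With each library left out, these directions turned too. Between Lmo2-/- and WT Flk-1+ cells Tead1 ran from -0.029 to 0.42, Tead2 from -0.18 to 0.023, Wwtr1 from -0.16 to 0.38 and Amotl2 from -0.34 to 0.034. Between Tal1-/- and WT, Tead1 ran from -0.063 to 0.38, Yap1 from -0.11 to 0.11, Cyr61 from -0.047 to 0.71 and Amotl2 from -0.50 to 0.13. Between Tal1-/- and Lmo2-/-, Tead1 ran from -0.11 to 0.045, Tead4 from -0.62 to 0.098, Wwtr1 from -0.019 to 0.38, Ankrd1 from -0.090 to 0 and Amotl2 from -0.31 to 0.32. Between the genotypes in HE1, Wwtr1 ran from -0.78 to 0.13, Ctgf from -1.25 to 0.85, Cyr61 from -3.09 to 1.30, Ankrd1 from -2.15 to 0.66 and Amotl2 from -0.60 to 0.46. Between the stages in Lmo2-/-, Tead2 ran from -1.07 to 1.27, Tead3 from -1.45 to 0.22 and Cyr61 from -0.89 to 3.50. In the interaction, Tead3 ran from -0.32 to 1.68, Wwtr1 from -0.85 to 0.048, Ctgf from -1.02 to 1.07, Cyr61 from -2.52 to 1.87, Ankrd1 from -1.74 to 1.07 and Amotl2 from -0.41 to 0.66.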
